A study of Mus musculus with 19 samples.

Results

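Most Clec genes encode proteins with a C-type lectin-like domain. The family was described here as the mouse genes whose symbol is Clec followed by a digit. Of the 30142 genes with a probe set of their own on the array, 34 were Clec members, chosen by symbol alone with no measured value in the rule. Each of the 34 had 1 probe set with a single gene symbol, no Clec probe set carried several symbols, and all 34 matched mouse RefSeq (GRCm38.p6), where Clec2j is listed as a pseudogene and the others as protein-coding. The arrays measured the abdominal aorta below the renal arteries in C57BL/6J mice, an inbred laboratory strain with no genetic change named in the labels. At 10 weeks of age the aorta was ligated or clamped off and filled under 120 mmHg for 5 min, either with saline alone (sham) or with type I porcine pancreatic elastase (PPE) in saline at 2.5 U/mL. The segment was collected 7 days later and freed of fat and connective tissue. Elastase breaks down elastin, and this infusion is a standard model of abdominal aortic aneurysm. The 19 arrays held 1 mouse each: 5 male sham, 7 male PPE, 3 female sham and 4 female PPE. All values are log2 intensities as deposited, so a difference of 1 is a doubling.

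Many Clec proteins are receptors of myeloid cells, the macrophages, monocytes, neutrophils and dendritic cells that enter an injured vessel wall. Activating members recruit the kinase Syk, either through a motif of their own or through the adaptor chains FcR gamma (Fcer1g) and DAP12 (Tyrobp), and Syk acts through Card9, Bcl10 and Malt1 on NF-kappa B. Inhibitory members carry a tail motif that recruits phosphatases such as SHP-1 (Ptpn6). Other members belong to platelets, endothelium or fibroblasts, or are ligands of the NKR-P1 receptors of natural killer cells. The family thus spans several cell types.

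Medians per array over all genes lay between 6.12 and 6.36 in the male and between 6.72 and 6.87 in the female arrays, so levels were compared only within a sex. Smooth muscle markers, which define the tissue, were bright in every group, with a list mean per array of 13.53 to 14.60 in male sham and 13.97 to 14.48 in female sham aortae. They were called lower after PPE in 6 of 6 members in males and in 5 of 6 in females (9.98% and 1.45% of all genes were). Adipocyte markers varied between arrays although fat was removed. Their list mean per array ran from 8.10 to 11.86 in male sham and 8.67 to 9.70 in male PPE aortae. In females it ran from 10.26 to 11.85 in sham and 9.38 to 11.31 in PPE aortae, and 0 of 5 measured markers were called in either sex. Of the 34 Clec members, 12 had a mean under that of the median gene on the array (6.46), where small changes are hard to see. These dim members were Clec1b, Clec2e, Clec2f, Clec2h, Clec2l, Clec2m, Clec3a, Clec4b2, Clec4f, Clec4g, Clec12b and Clec18a. Only 2 of them, Clec2f and Clec4b2, were called in males. In whole aorta, a change in the number of cells of a type and a change of RNA per cell cannot be told apart.

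In males, 18 of the 34 Clec members rose after PPE, 2 fell and 14 were not called (limma, Benjamini-Hochberg adjusted p under 0.05 over all genes). Over all genes 9.67% were called higher and 9.98% lower in that comparison, or 11.1% and 7.45% with each array centred on its median. The members called higher were the 5 activating myeloid receptors Clec4e, Clec4d, Clec4n, Clec5a and Clec7a, the inhibitory receptors Clec12a, Clec4a2 and Clec4a4, and the macrophage and dendritic cell receptors Clec4a1, Clec4a3, Clec4b1, Clec4b2, Clec9a and Clec10a. They further included Clec2d, Clec2f, Clec2i and Clec2j of the group that holds the NKR-P1 ligands. The fibroblast gene Clec3b and the endothelial gene Clec14a fell. The median log2 difference over the 34 members was 0.35, against 0.01 over all genes. Differences were positive in 29 of 34 members and in 51.5% of all genes. Of the 34, 12 had every male PPE array above every male sham array (4.69% of all genes did so) and none had every PPE array below every sham array (4.68% of all genes).

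In females, Clec4e, Clec5a and Clec2i rose, no member fell, and 31 were not called. The share of all genes called higher was 2.77%, and 1.45% were called lower. With each array centred on its median these shares were 1.69% and 1.38%, and after quantile normalization 2.61% and 2.87%. Differences were positive in 24 of 34 members and in 44.5% of all genes. In 12 of the 34 members every female PPE array lay above every female sham array, as in 11.0% of all genes. In 1, Clec3b, every PPE array lay below, as in 8.86% of all genes. The 18 members called higher in males all had a positive difference in females as well, with a median of 0.84 and a range of 0.04 to 1.77, against a median of −0.02 over all genes. In 10 of these 18, the female groups were apart with PPE on top, as in 11.0% of all genes. These 18 were chosen by their male rise, and the female differences of all genes called higher in males were not computed. The female count was 1 (Clec2i) without female sham 2 or 3 or without female PPE 1 or 3, 6 without male sham 4 and 5 without male PPE 6 (all arrays share 1 estimate of the spread). With 3 and 4 arrays the female comparison was the less precise of the pair.

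**Figure D1:**
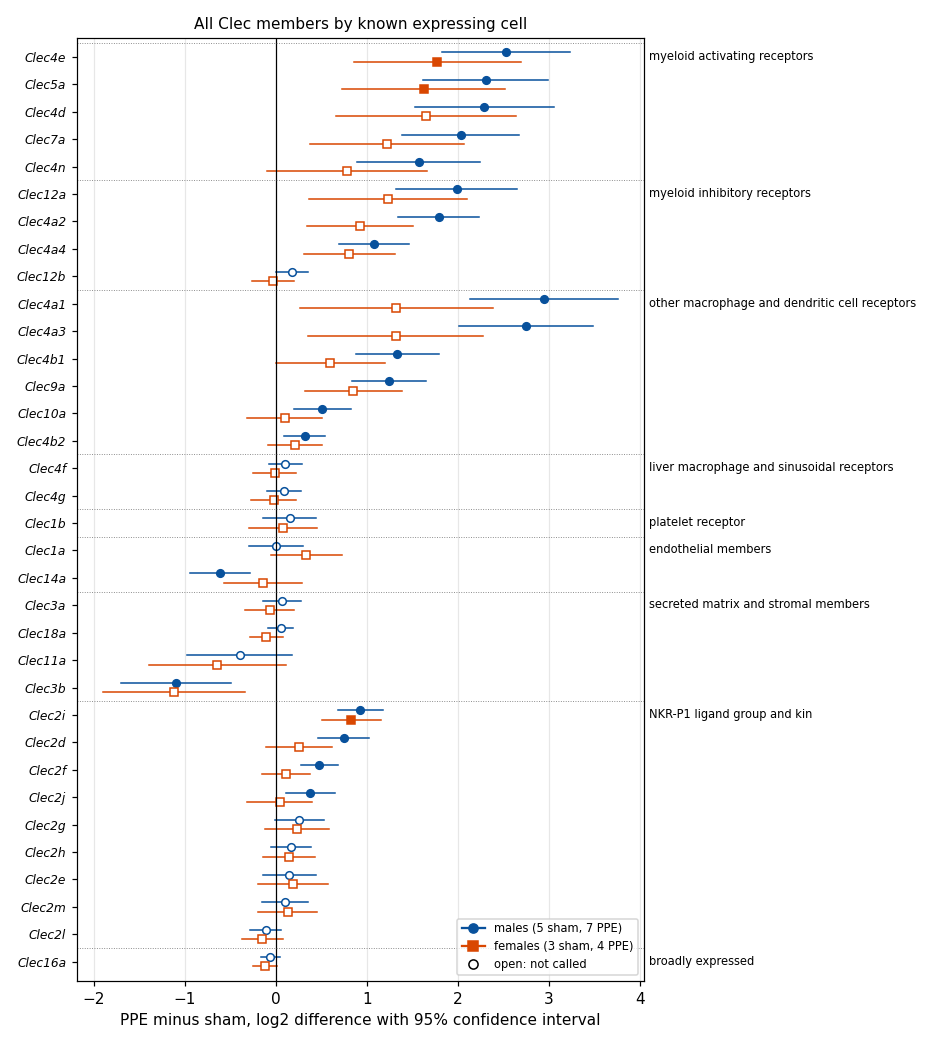
Log2 difference between PPE and sham aortae (x axis, points, with 95% confidence intervals as lines) for all 34 Clec members (y axis) in males (circles) and females (squares), grouped by the cell known for each gene. Filled points were called, and the 18 male rises lie in the myeloid and NKR-P1 ligand groups, while Clec3b and Clec14a lie left of 0.

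The activating myeloid receptors rose in 5 of 5 members in males, with a median of 2.29 and a range of 1.57 to 2.52. Clec4e encodes Mincle, a receptor for mycobacterial glycolipid and for a protein released by dying cells. Its male sham values were 6.87, 7.13, 7.60, 6.80 and 6.40, and its male PPE values ran from 8.99 over a median of 9.45 to 10.09. The groups did not overlap, and the difference was 2.52 ± 0.33 (SE, n = 5 and 7, 5.74-fold, limma adjusted p = 2.72e-05). In females the sham values were 7.59, 6.57 and 6.79 and the PPE values 9.96, 9.16, 8.56 and 7.33. Female PPE 4 thus lay below female sham 1, while the other PPE arrays lay above all sham arrays. The female difference was 1.77 ± 0.44 (n = 3 and 4, 3.41-fold, limma adjusted p = 0.0269). This call was lost without female sham 2 (0.145) or 3 (0.0959), without female PPE 1 (0.0827), 2 (0.0766) or 3 (0.0562), and with female arrays alone (0.128), and adjusted p over the alternatives ran from 0.00213 to 0.145.

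Clec4d encodes MCL, which pairs with Mincle on macrophages and neutrophils, and its gene is the neighbour of Clec4e on chromosome 6. In male sham aortae it read 8.01, 8.57, 8.90, 8.10 and 7.89, and in male PPE aortae it ran from 10.15 over 10.69 to 10.88. Without overlap, it rose by 2.29 ± 0.36 (4.89-fold, limma adjusted p = 0.000151). In females the sham values were 8.79, 6.96 and 7.95 and the PPE values 10.75, 10.12, 9.13 and 8.19. The female difference of 1.65 ± 0.47 missed the threshold (limma adjusted p = 0.0576), and female PPE 4 again lay among the sham arrays. It was called without female sham 1 (0.0428) or female PPE 4 (0.00708), with a replicate block (0.0183), with array weights (0.0118) and without dim genes (0.035).

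Clec5a encodes MDL-1, a DAP12-coupled receptor of neutrophils and monocytes. Its male sham values were 8.05, 8.57, 9.76, 7.55 and 7.86, and its male PPE values ran from 10.17 over 10.72 to 10.98. All PPE arrays were above all sham arrays, although male sham 3 stood close to them, and the rise was 2.30 ± 0.33 (4.93-fold, limma adjusted p = 5.41e-05). In females it read 8.97, 9.05 and 9.73 after saline and 11.75, 10.26, 11.21 and 10.26 after PPE. These groups did not overlap either, and the rise was 1.62 ± 0.43 (3.07-fold, limma adjusted p = 0.0387). The female call was lost without female sham 1 (0.162), 2 (0.161) or 3 (0.053), without female PPE 1 (0.132) or 3 (0.111), after centring (0.0668), with female arrays alone (0.0536) and with a replicate block (0.0519), within a range of 0.00421 to 0.162.

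Clec7a encodes dectin-1, the beta-glucan receptor, which signals to Syk through a motif of its own. In male sham aortae it read 10.95, 11.56, 10.39, 10.08 and 9.28 and in male PPE aortae from 12.09 over 12.53 to 12.88. The groups were apart and the rise was 2.03 ± 0.31 (4.08-fold, limma adjusted p = 9.77e-05). In females the sham values were 11.85, 10.93 and 12.12 and the PPE values 13.37, 13.09, 12.47 and 12.48. All 4 PPE arrays were above the 3 sham arrays, but the difference of 1.22 ± 0.40 was not called (limma adjusted p = 0.108).

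Clec4n encodes dectin-2, a receptor for fungal mannans that uses FcR gamma. It rose by 1.57 ± 0.32 in males (limma adjusted p = 0.0016), with male sham 3 (10.99) above male PPE 6 (10.76) and the other arrays apart. In females it stood at 0.78 (95% interval −0.10 to 1.66) and was not called.

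**Figure D2:**
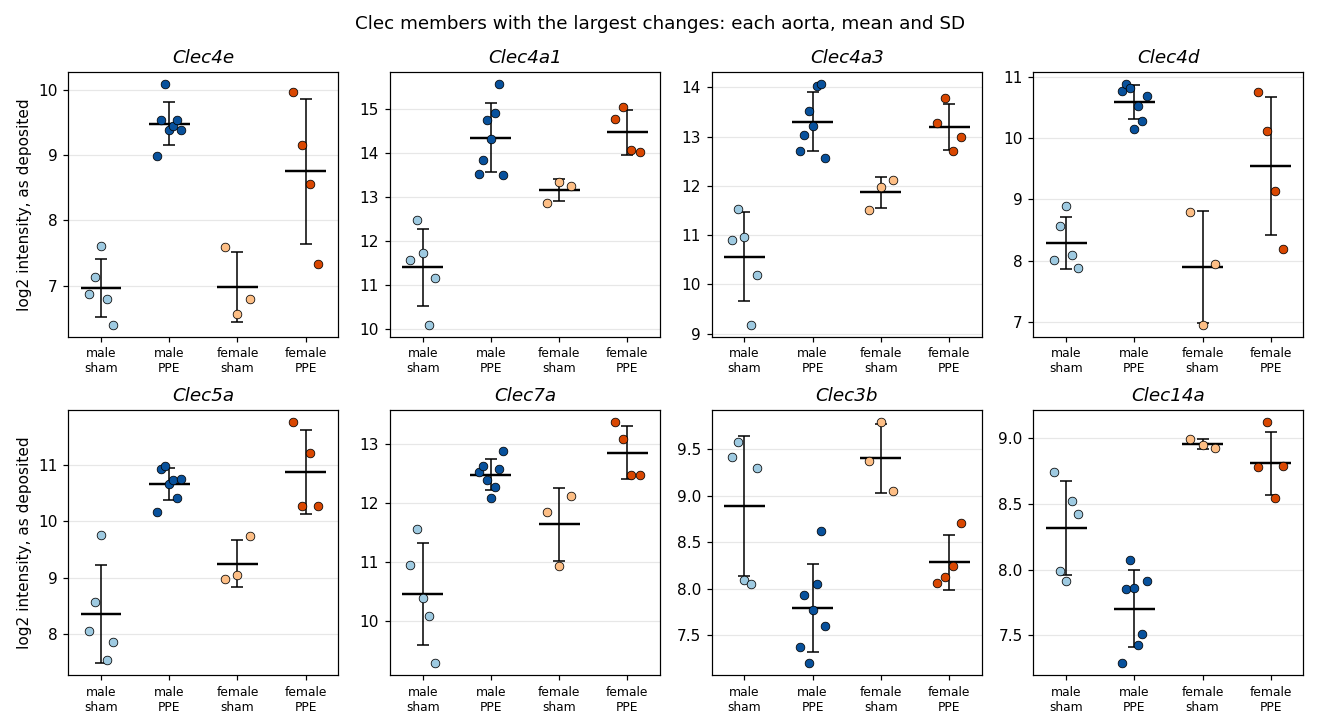
Log2 intensity (y axis) of the 6 Clec members with the largest rise and the 2 called falls in each aorta (points) of the 4 groups (x axis), with the group mean as a bar and the SD as whiskers. In the 6 rising members every male PPE aorta lies above every male sham aorta, and in Clec4e and Clec4d 1 female PPE aorta lies among the female sham aortae.

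The largest male rises belonged to a pair of DCIR genes without the inhibitory tail motif. These are Clec4a1 (DCIR4) and Clec4a3 (DCIR3), genes of monocytes, macrophages and dendritic cells. Clec4a1 read 11.56, 12.48, 11.73, 10.10 and 11.16 in male sham and from 13.49 over 14.33 to 15.57 in male PPE aortae. The rise was 2.94 ± 0.39 (7.68-fold, limma adjusted p = 2.5e-05) and ranked 29th among the 30142 genes. In females the values were 12.87, 13.35 and 13.25 after saline and 14.77, 15.04, 14.06 and 14.03 after PPE. They did not overlap, and the difference of 1.32 ± 0.50 was not called (limma adjusted p = 0.186).

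Clec4a3 also had its lowest value in male sham 4. It read 10.91, 11.54, 10.96, 9.18 and 10.20 after saline and from 12.57 over 13.22 to 14.07 after PPE in males, a rise of 2.74 ± 0.35 (6.70-fold, limma adjusted p = 1.87e-05). In females it read 11.52, 11.98 and 12.12 after saline and 13.28, 13.79, 12.70 and 12.99 after PPE. Again the female groups were apart with a difference of 1.32 ± 0.46 that was not called (limma adjusted p = 0.134). The DCIR and DCAR genes are close relatives, and whether their probe sets share signal was not tested.

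Of the 4 inhibitory receptors, 3 rose in males and Clec12b was not called. Clec12a encodes MICL, an inhibitory receptor of myeloid cells that recognises uric acid crystals, and it rose by 1.98 ± 0.32 (3.96-fold, limma adjusted p = 0.000161). Clec4a2, which encodes the inhibitory DCIR1, rose by 1.79 ± 0.21 (limma adjusted p = 9.06e-06). Clec4a4, the DCIR2 gene of conventional dendritic cells, rose by 1.08 ± 0.18 (limma adjusted p = 0.000276). All 3 had male groups without overlap, and so did the female groups, where the differences of 1.23, 0.92 and 0.81 were not called. Activating and inhibitory receptors thus both held called rises in males.

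Among the remaining macrophage and dendritic cell receptors, Clec9a encodes DNGR-1, the receptor for exposed actin filaments on cross-presenting dendritic cells. It read 6.50, 6.80, 5.68, 6.96 and 6.70 in male sham and from 7.46 over 7.70 to 8.40 in male PPE aortae, a rise of 1.24 ± 0.19 (limma adjusted p = 0.00013) without overlap. In females the sham values were 7.08, 7.69 and 7.63 and the PPE values 8.31, 8.13, 8.27 and 8.55, apart but not called (0.85 ± 0.25, limma adjusted p = 0.0697). Clec4b1, a DCAR gene of dendritic cells, rose by 1.33 ± 0.22 in males (limma adjusted p = 0.000212).

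Clec10a encodes the galactose-binding lectin MGL1, used as a marker of resident and alternatively activated macrophages, and it moved far less than the receptors above. It rose by 0.51 ± 0.15 in males (limma adjusted p = 0.0211) and stood at 0.09 in females (95% interval −0.32 to 0.50). The male call was lost without male sham 3 (0.0505), 4 (0.0562) or 5 (0.0557), with array weights (0.145) and without male sham 4, male sham 5 and male PPE 1 together (0.209), within a range of 0.00376 to 0.209. The male call of Clec4b2 (0.31 ± 0.11, limma adjusted p = 0.0488) was lost in 18 of 27 alternatives, within a range of 0.00361 to 0.182. These include the fits without any 1 of male sham 1, 2, 3 and 5, male PPE 1, 2, 4, 5, 6 and 7, female sham 2 and 3 and the 4 female PPE arrays.

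Markers of the myeloid cells moved with these receptors. Among all genes, 9.67% were called higher in males and 2.77% in females. Monocyte and macrophage markers were called higher in 7 of 8 members in males and in 0 of 8 in females (limma, and all but Mertk had a positive difference in females). The list mean per array ran from 11.95 to 13.50 in male sham, 13.87 to 14.79 in male PPE, 13.34 to 13.56 in female sham and 13.82 to 14.44 in female PPE aortae. Neutrophil markers were called higher in 6 of 7 members in males and 4 of 7 in females, and their list mean rose without overlap from 7.12 to 8.42 to 9.14 to 9.94 in males and from 6.98 to 7.48 to 8.91 to 9.58 in females. Dendritic cell markers were called higher in 5 of 7 members in males and 2 of 7 in females. Markers of resident adventitial macrophages, such as Lyve1, Folr2 and Cd163, were called higher in 0 of 7 members in either sex. Cbr2 fell in males (−1.10), and the other members were not called. Male differences were positive in 4 of 7, namely Folr2 (1.17), Mrc1 (0.74), F13a1 (0.71) and Cd163 (0.07). Those of Cbr2, Lyve1 (−0.28) and Timd4 (−0.17) were negative. In females 3 of 7 were positive. The part of cell numbers in the Clec rises was not tested.

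The promoters of the 6 members with the largest rises are shown because these genes moved together, from 250 bases before to 50 bases after the RefSeq start (GRCm38.p6). Capitals mark GAGGAA or its reverse complement TTCCTC, the core of the site bound by PU.1, the ETS factor of myeloid cells. The windows lie at chr6:123289822-123290121, minus strand (Clec4e), chr6:123261857-123262156, plus strand (Clec4d), chr6:40585756-40586055, minus strand (Clec5a), chr6:122921598-122921897, plus strand (Clec4a1), chr6:122952265-122952564, plus strand (Clec4a3) and chr6:129472730-129473029, minus strand (Clec7a). Each is written 5′ to 3′ on the strand of its gene.
Clec4e: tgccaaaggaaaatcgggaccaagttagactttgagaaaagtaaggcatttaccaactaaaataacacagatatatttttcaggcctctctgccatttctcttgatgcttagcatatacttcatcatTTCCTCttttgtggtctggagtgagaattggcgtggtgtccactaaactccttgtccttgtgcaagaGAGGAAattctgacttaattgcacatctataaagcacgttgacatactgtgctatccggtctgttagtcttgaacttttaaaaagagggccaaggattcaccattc
Clec4d: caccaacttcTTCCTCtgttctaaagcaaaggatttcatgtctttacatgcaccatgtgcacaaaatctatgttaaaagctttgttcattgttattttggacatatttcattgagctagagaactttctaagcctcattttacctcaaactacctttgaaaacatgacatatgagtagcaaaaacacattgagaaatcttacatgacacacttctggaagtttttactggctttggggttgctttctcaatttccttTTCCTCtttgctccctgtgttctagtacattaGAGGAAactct
Clec5a: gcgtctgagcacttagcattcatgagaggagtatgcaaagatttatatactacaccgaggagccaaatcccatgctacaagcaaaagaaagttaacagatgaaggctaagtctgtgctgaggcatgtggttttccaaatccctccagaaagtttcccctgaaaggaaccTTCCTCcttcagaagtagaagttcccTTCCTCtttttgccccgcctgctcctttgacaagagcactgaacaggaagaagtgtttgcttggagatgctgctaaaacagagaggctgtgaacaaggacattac
Clec4a1: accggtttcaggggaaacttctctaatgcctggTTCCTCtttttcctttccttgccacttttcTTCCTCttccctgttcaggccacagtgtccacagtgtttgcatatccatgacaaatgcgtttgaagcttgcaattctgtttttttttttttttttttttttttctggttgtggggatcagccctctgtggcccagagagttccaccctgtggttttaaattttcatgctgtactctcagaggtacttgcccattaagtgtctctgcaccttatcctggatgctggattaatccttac
Clec4a3: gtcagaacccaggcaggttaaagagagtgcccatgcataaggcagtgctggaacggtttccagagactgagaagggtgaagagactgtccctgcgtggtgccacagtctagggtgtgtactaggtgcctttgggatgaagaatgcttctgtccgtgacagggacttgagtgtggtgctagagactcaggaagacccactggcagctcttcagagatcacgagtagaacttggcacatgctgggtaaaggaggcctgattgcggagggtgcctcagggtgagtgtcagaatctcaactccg
Clec7a: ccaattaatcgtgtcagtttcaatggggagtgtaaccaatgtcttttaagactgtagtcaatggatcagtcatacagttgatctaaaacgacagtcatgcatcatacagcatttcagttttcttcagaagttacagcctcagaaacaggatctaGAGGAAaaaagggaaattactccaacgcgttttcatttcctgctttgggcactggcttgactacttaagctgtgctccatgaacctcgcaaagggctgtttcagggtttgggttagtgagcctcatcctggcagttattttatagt

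The motif occurred 2 times in the window of Clec4e, 3 times in that of Clec4d, 2 times in those of Clec5a and Clec4a1, 1 time in that of Clec7a and 0 times in that of Clec4a3. For Clec4a3 and Clec7a 2 windows each were at hand, and these counts are those of the 1 shown. Windows were at hand for 26 of the 34 members. On both strands GAGGAA was found in 8 of 13 windows of members called higher in males (61.5%), in 6 of 13 of the other members (46.2%) and in 28.3% of 27025 windows of all genes. The C/EBP-like TTNCNNAA was found in 8 of 13 (61.5%), 5 of 13 (38.5%) and 40.7%. The interferon-type motif, GAAA and GAAA with any 2 bases between them, was found in 3 of 13 (23.1%), 0 of 13 and 3.49%. The NF-kappa B-type motif, GGG, any 2 bases, TT, any base and CC, was found in 0 of 13, 1 of 13 (7.69%) and 4.71%. The 4 motifs do not contain each other, although single matches can overlap in a window, and a match is a string of letters and not a measured site.

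No member known from vessel wall cells or platelets was called higher. Of these, Clec1b, Clec3a and Clec18a had means under that of the median gene (6.46), where small changes are hard to see. Clec3b encodes tetranectin, a plasminogen-binding protein secreted by fibroblasts. It read 9.42, 9.58, 8.09, 8.05 and 9.30 in male sham and from 7.20 over 7.77 to 8.62 in male PPE aortae. Male sham 3 and 4 lay within the PPE range, and the fall was −1.10 ± 0.29 (2.14-fold, limma adjusted p = 0.00993). In females it read 9.37, 9.79 and 9.05 after saline and 8.06, 8.12, 8.24 and 8.71 after PPE. There the groups did not overlap, and the difference of −1.12 ± 0.37 was not called (limma adjusted p = 0.114). Of 6 measured fibroblast markers, Dpt (−1.02), Pi16 (−0.74) and Lum (−0.43) fell in males, while Col1a1 (−0.01), Col1a2 (−0.03) and Dcn (−0.06) were not called. In females Pi16 fell (−1.07) and the other 5 were not called. Of all genes, 9.98% were called lower in males and 1.45% in females.

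Clec14a encodes an endothelial cell surface protein that binds multimerin 2 and takes part in vessel sprouting. It read 8.74, 7.99, 7.91, 8.52 and 8.42 in male sham and from 7.29 over 7.85 to 8.07 in male PPE aortae, a fall of −0.61 ± 0.16 (1.53-fold, limma adjusted p = 0.00838) with overlap at male sham 2 and 3. In females it read 8.99, 8.95 and 8.92 after saline and 8.78, 9.12, 8.54 and 8.79 after PPE, and the difference of −0.15 had a 95% interval of −0.57 to 0.28. The male call was lost without male sham 4, male sham 5 and male PPE 1 together (−0.44, limma adjusted p = 0.105) and with a replicate block (0.113), within a range of 0.00307 to 0.113. Endothelial markers were called lower in 4 of 8 members in males and 0 of 8 in females (9.98% and 1.45% of all genes were). Those called in males were Pecam1, Tek, Tie1 and Vwf. The markers Cldn5 (−0.57), Cdh5 (−0.07), Emcn (0.03) and Kdr (0.21) were not called in males. Clec1a, which is also expressed by endothelium and by some myeloid cells, stood at 0.00 in males (−0.30 to 0.30) and at 0.33 in females (−0.06 to 0.72), where all 4 PPE arrays exceeded the sham arrays.

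Clec1b encodes CLEC-2, the platelet receptor for podoplanin. Its difference was 0.15 in males (95% interval −0.14 to 0.44) and 0.07 in females (−0.30 to 0.45), neither called. Platelet markers were called in 0 of 7 members in either sex. Clec11a, a stromal growth factor gene, stood at −0.40 in males (−0.98 to 0.18) and −0.64 in females (−1.40 to 0.11). The male value was called lower without male sham 4 (−0.70, limma adjusted p = 0.0369), with array weights (−0.73, 0.0224) and without male sham 4, male sham 5 and male PPE 1 together (−0.93, 0.00532), and over all alternatives it ran from −0.93 to −0.14. Male sham 4 had the lowest level of the sham group (10.79, against 11.53 to 13.02 in the others). Clec3a of cartilage and the secreted Clec18a were not called in either sex, with differences between −0.11 and 0.07. The liver genes Clec4f, of Kupffer cells, and Clec4g, of sinusoidal endothelium, were not called either, with differences between −0.03 and 0.10. Both had means under that of the median gene as well. Clec16a, a broadly expressed gene of endosome and autophagy function, stood at −0.06 in males (−0.16 to 0.04) and −0.12 in females (−0.25 to 0.01).

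Among the 9 Clec2 members, 4 rose in males and 1 in females (9.67% and 2.77% of all genes were called higher). Clec2i encodes Clr-g, a ligand of the receptor NKR-P1F, and it was the only Clec member whose call held under every alternative in both sexes. It read 7.83, 7.83, 7.52, 7.45 and 7.49 in male sham and from 8.25 over 8.55 to 8.82 in male PPE aortae, a rise of 0.93 ± 0.12 (1.90-fold, limma adjusted p = 1.69e-05). In females it read 8.10, 8.21 and 8.62 after saline and 9.15, 9.18, 9.23 and 8.99 after PPE, a rise of 0.83 ± 0.15 (1.77-fold, limma adjusted p = 0.00574). Neither sex showed overlap.

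Clec2d encodes Clr-b, a ligand of inhibitory NKR-P1 receptors that many blood cells carry. It read 14.54, 14.86, 14.77, 14.98 and 15.19 in male sham and from 15.08 over 15.65 to 16.03 in male PPE aortae, a rise of 0.74 ± 0.13 (limma adjusted p = 0.000467) with male sham 5 above the lowest PPE array. In females all 4 PPE arrays (16.10, 16.27, 16.50 and 16.24) exceeded the sham arrays (16.04, 16.01 and 16.03), but the difference of 0.25 was not called. Clec2f (0.48 ± 0.10, limma adjusted p = 0.00159) rose in males. The male call of the pseudogene Clec2j (0.38 ± 0.13, limma adjusted p = 0.0482) was lost in 18 of 28 alternatives (0.0147 to 0.121). They include the fits without any 1 of male sham 1 to 4, male PPE 1, 4, 5 and 7 and the 7 female arrays. The other Clec2 genes (Clec2e, Clec2g, Clec2h, Clec2l and Clec2m) were not called in either sex, with differences between −0.15 and 0.26. Clec2g was called higher in males after centring (0.30, limma adjusted p = 0.0466), and Clec2h with array weights (0.25, 0.026) and without the 3 male arrays named above (0.25, 0.0366). Signal shared between these close relatives was not tested.

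By position, 23 of the 34 members lie in a pair of blocks on chromosome 6 whose members are less than 1 Mb apart, a grouping made after the values were seen. The first block (chr6:122921848-123289871, GRCm38.p6) holds Clec4a1, Clec4a3, Clec4a4, Clec4b1, Clec4a2, Clec4b2, Clec4n, Clec4d and Clec4e. All 9 were called higher in males (9.67% of all genes were), with a median of 1.79 and a range of 0.31 to 2.94. Clec4b2 was the member whose call was lost in most alternatives. In females 1 of these 9 was called higher (Clec4e, while 2.77% of all genes were), and all 9 had positive differences with a median of 0.92. The second block (chr6:128655105-129472785) runs from Clec2j to Clec7a with 14 members. There 7 of 14 were called higher in males, the median over all 14 was 0.32, and the members above 1 (Clec12a, Clec9a and Clec7a) lie in its distal part, beside Clec12b, Clec1b and Clec1a, which were not called. Calls thus differed between neighbours in the second block, although Clec12b and Clec1b had means under that of the median gene, where small changes are hard to see. Of the 11 members outside the blocks, 2 rose (Clec5a and Clec10a) and 2 fell in males. The RefSeq interval of Clec12b spans Clec1b and Clec9a, and shared signal was not tested.

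**Figure D3:**
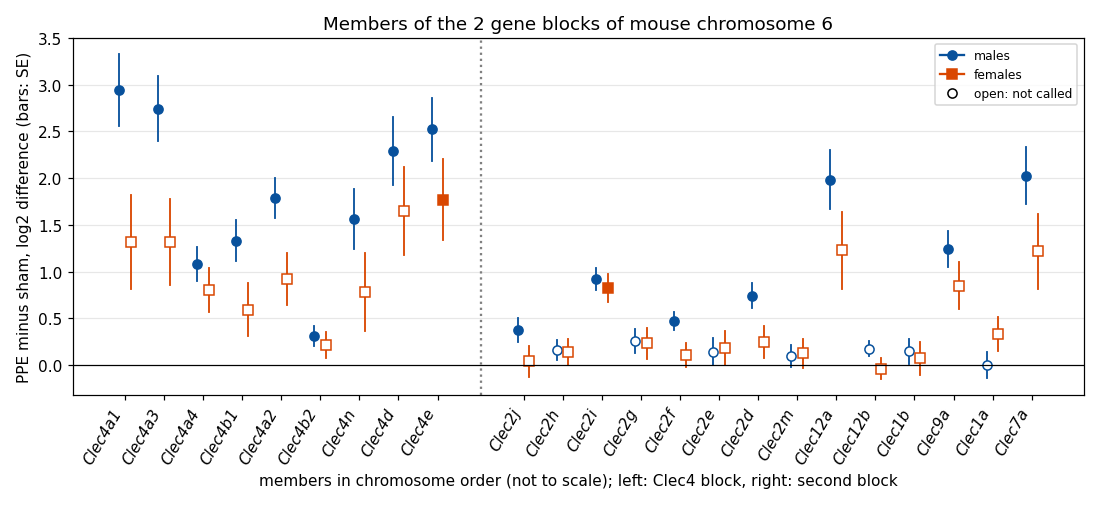
Log2 difference between PPE and sham aortae (y axis, points, with SE as bars) of the 23 members in the chromosome 6 blocks in their order along the chromosome (x axis, not to scale), in males (circles) and females (squares). Filled points were called. In males all 9 members of the left block and 7 of 14 of the right block were called higher.

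The responses of the sexes were compared by an interaction term. Medians of the male and female arrays did not overlap, and the labels do not say whether they were processed together. Sex and processing therefore cannot be told apart in this comparison. No Clec member was called for a difference between the male and female response (limma, 0 of 34, while 0.541% of all genes were called). At an unadjusted limma p under 0.05 there were 5 (Clec4a1, Clec4a2, Clec4a3, Clec2d and Clec2f), each with the larger rise in males. The share of all genes at that threshold was not computed, so this count has no baseline and gives no result for the family. By size, the male difference exceeded the female one in 25 of 34 members and in 56.3% of all genes. For Clec4a1 the male response exceeded the female one by 1.62 (95% interval 0.29 to 2.96, limma adjusted p = 0.368). For Clec4a3 the excess was 1.43 (0.22 to 2.64, adjusted p = 0.388) and for Clec4e 0.75 (−0.40 to 1.91, adjusted p = 0.699). For Clec3b (−1.10 in males and −1.12 in females), the male minus female value was 0.02 (−0.96 to 1.01). The widths of these intervals leave the size of any difference between the sexes unresolved in these 19 arrays.

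Genes that carry the signals of these receptors rose too. Of 10 measured adaptor and Syk pathway genes, 9 rose in males and 5 in females, and none fell. For comparison, 9.67% of all genes were called higher in males and 2.77% in females. The guanine nucleotide exchange factor gene Vav1 rose by 1.79 ± 0.19 in males and 1.47 ± 0.25 in females (limma adjusted p = 3.34e-06 and 0.00344). Syk itself rose by 1.15 ± 0.16 and 1.06 ± 0.21 (limma adjusted p = 4.18e-05 and 0.00762). Malt1, which acts below Card9, rose by 0.91 and 1.03, and the phospholipase gene Plcg2 rose by 1.15 and 0.97. The adaptor genes Fcer1g (2.44) and Tyrobp (1.91) rose in males, while their female differences of 0.85 and 0.98 were not called. These genes serve many other receptors of blood cells.

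Of the 3 phosphatase genes, Ptpn6, which encodes SHP-1, rose by 2.03 ± 0.22 in males and 1.53 ± 0.29 in females (limma adjusted p = 4.3e-06 and 0.00638). Inpp5d, which encodes SHIP-1, rose by 1.52 and 1.10. Ptpn11, which encodes the broadly expressed SHP-2, fell in males (−0.30, limma adjusted p = 0.00637) and was not called in females (−0.31).

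Among 10 ligands and partners of Clec proteins, 4 rose and 1 fell in males, and 2 rose in females. The shares of all genes called were 9.67% higher and 9.98% lower in males, and 2.77% higher in females. The 4 risers were the NKR-P1 receptor genes Klrb1a, Klrb1b, Klrb1c and Klrb1f of natural killer cells. Klrb1b encodes an inhibitory receptor for the Clec2d product. It rose from 8.02 ± 0.39 (SD) to 10.98 ± 0.22 in males (2.96 ± 0.16, SE) and from 9.52 ± 0.23 (SD) to 10.67 ± 0.28 in females (1.15 ± 0.21, SE). The male rise was the larger by 1.81 ± 0.26 (limma adjusted p = 0.0134). It was the only call for a difference between the male and female arrays among the Clec members and these partner genes. This call was lost without female sham 1 (limma adjusted p = 0.0849) or female sham 2 (0.0581) and with a replicate block (0.203), within a range of 0.00108 to 0.203 over 27 alternatives run after its value was seen. Klrb1c, which encodes NK1.1, rose by 1.73 in males and 0.85 in females. Markers of natural killer and T cells were called higher in 6 of 6 measured members in males and 5 of 6 in females. Mmrn2, the gene of the Clec14a ligand multimerin 2, fell in males (−0.52 ± 0.09, limma adjusted p = 0.000302) as Clec14a did, and was not called in females (−0.16). Pdpn, the gene of the Clec1b ligand podoplanin, was not called in males (0.25) or females (−0.01).

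**Figure D4:**
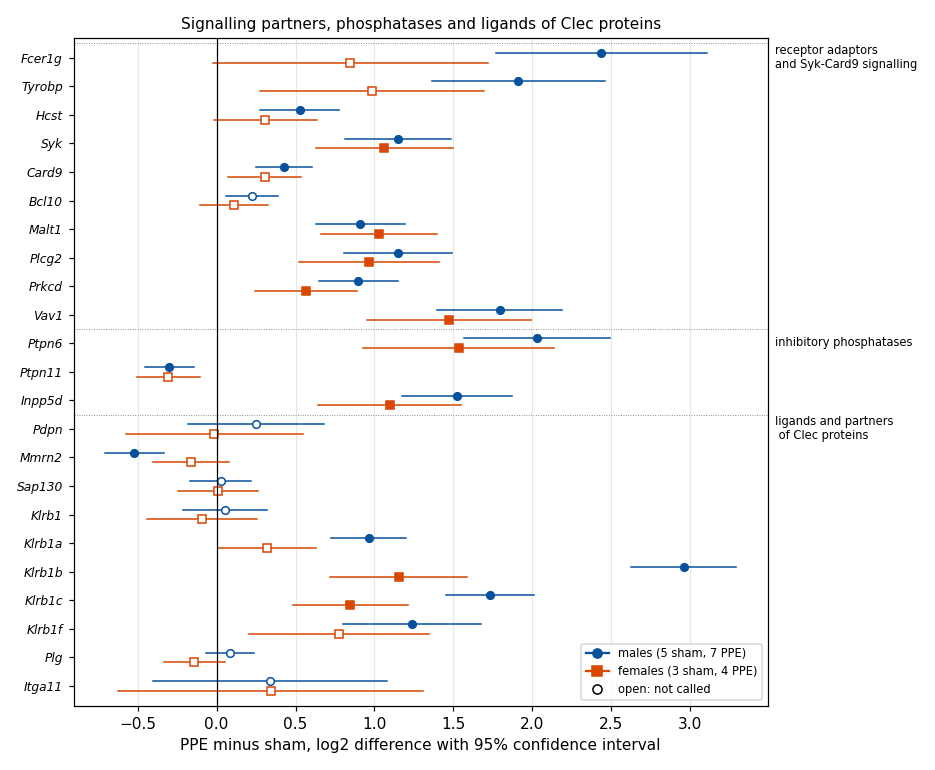
Log2 difference between PPE and sham aortae (x axis, points, with 95% confidence intervals as lines) of 23 adaptor, signalling, phosphatase, ligand and partner genes (y axis) in males (circles) and females (squares), with filled points called. Vav1, Syk, Malt1, Plcg2, Prkcd, Ptpn6, Inpp5d, Klrb1b and Klrb1c are called higher in both sexes, and Klrb1b has the largest male value (2.96).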

How the data were processed

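Each of the 19 arrays (Affymetrix Clariom D, mm10 annotation) held total RNA of 1 mouse, per the labels. The values are log2 intensities per probe set, deposited by the authors after Transcriptome Analysis Console, per the submitters' processing notes. No source used here states its version, summarisation or normalization, and no further normalization was applied. Of 65956 probe sets, 30604 had 1 gene symbol in the platform annotation, 2146 had several and 33206 were not listed. The brightest probe set stood for each of 30142 genes (355 had several). Symbols were updated to RefSeq for 827 probe sets. Group means were fitted with limma 3.58.1 in R 4.3.3 over all arrays, with Benjamini-Hochberg adjustment over all genes and calls at 0.05. SE and 95% intervals are those of this fit.

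Every member called in either sex was named. Values per array were given for the 6 called members with the largest rise and for the called falls, and those of Clec9a, Clec2d and Clec2i were added after their values were seen. Members, role groups, gene lists and markers were chosen with earlier results of these data known. The fit was tested on simulated data with known changes. Alternatives were quantile normalization, centring, leaving out dim genes, averaging probe sets, fits of the compared groups alone, a trended robust prior, array weights, a replicate block, leaving out each array, and leaving out male sham 4, male sham 5 and male PPE 1, which an earlier analysis of these data set apart. The number of arrays limits the precision.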

Additional observations from a re-analysis of the deposited data

Results flagged for a closer look

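In 7 of 102 member-by-group sets of 4 to 7 arrays, 1 array lay far from the others of its group by Dixon's criterion. Its cut-off had a one-tailed chance of 5%, and flags at either end of a group were counted. Chance thus meets it in more than 5% of sets, and the 7 sets are no sign of excess. Male PPE 1 was the lowest of its group for Clec16a (7.97, others 8.07 to 8.11) and the highest for Clec2m (5.76, others 4.96 to 5.16) and Clec4f (5.45, others 4.84 to 5.10). Male PPE 6 was the highest for Clec9a (8.40, others 7.46 to 7.80) and for Clec1b (6.20, others 5.24 to 5.58). Male sham 5 was the highest for Clec2f (5.94, others 5.42 to 5.52), and female PPE 3 for Clec4g (5.89, others 5.56 to 5.6). The rise of Klrb1b after PPE was 1.81 larger in males than in females on the log2 scale (limma adjusted p = 0.0134). The interaction term called this difference, in which sex and processing cannot be told apart. The call was lost without female sham 1 (0.0849) or 2 (0.0581) and with a replicate block (0.203).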

How the results depend on the processing

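Of the 18 male rises, 15 kept their call in all of the 27 or 28 alternatives that tested them (members with a low mean drop out with the dim genes), while Clec10a, Clec2j and Clec4b2 did not. The male count higher ran from 16 to 19 over the alternatives that kept all arrays and from 15 to 18 with 1 array left out. The male count lower was 1 with a replicate block and ran from 2 to 3 with 1 array left out. The female count higher, 3 as reported, was 7 without dim genes, 7 with female arrays alone, 11 with array weights, 8 without male sham 4, male sham 5 and male PPE 1, and ran from 1 to 6 with 1 array left out. The female count lower, 0 as reported, was 1 (Clec3b) with female arrays alone and 1 with array weights. For the difference between the sexes, 0 as reported, array weights called 1 member (Clec2f). The cause of these changes was not tested. In males Clec11a, Clec2g and Clec2h gained a call in some alternatives. In females Clec4d, Clec12a, Clec4a1 to Clec4a4, Clec7a, Clec9a and Clec3b did.

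Members that changed sign were all uncalled. Without the 3 male arrays, Clec16a in males was at 0.0033. In females, Clec10a was at −0.11 with a replicate block and between −0.11 and 0.21 with 1 array left out, and Clec2j was at −0.042 after quantile normalization and −0.0063 after centring. Clec4f was at 0.017 and Clec4g at 0.0017 after quantile normalization. With 1 array left out, the female values ran from −0.06 to 0.03 for Clec4f, −0.15 to 0.068 for Clec4g, −0.093 to 0.04 for Clec12b and −0.035 to 0.14 for Clec1b.

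Replicate numbers did not pair the arrays: the deviations of 8 same-numbered pairs correlated between −0.32 and 0.24, and 1 of 8 arrays correlated best with its own number. With the block, genes called in males went from 2916 higher and 3007 lower to 1801 and 1734. In females they went from 835 and 438 to 504 and 135. For the difference between the sexes, 0 of 30142 genes were called with the block, without female sham 1 and without female sham 2, against 12 higher and 151 lower as reported. Genes called in females rose to 1334 and 636 with female arrays alone and to 2243 and 1708 with array weights.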

Other observations

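Of 26 measured C-type lectins without a Clec symbol, 5 were called higher and 2 lower in males, with a median of 0.07, and 2 were called higher in females (limma). Over all genes 9.67% were called higher and 9.98% lower in males, and 2.77% higher in females. Cd69, an early activation marker of lymphocytes, rose by 2.69 ± 0.38 in males and 2.20 ± 0.50 in females (limma adjusted p = 4.92e-05 and 0.0159). Ly75, which encodes the dendritic cell receptor DEC-205, rose by 1.00 ± 0.09 and 0.77 ± 0.12 (limma adjusted p = 1.09e-06 and 0.00257). The B cell receptor gene Cd72 rose by 2.56 ± 0.38 in males and stood at 1.37 ± 0.49 in females, where it was not called. Cd209a and Olr1 rose in males as well. Thbd, which encodes endothelial thrombomodulin, fell in males (−0.40 ± 0.12, limma adjusted p = 0.0275), and so did Pla2r1 (−0.43). The mannose receptor gene Mrc1, a marker of resident macrophages, was at 0.74 ± 0.41 in males and 0.22 ± 0.54 in females and was not called.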
